A study of Mus musculus with 6 samples.

Results

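The genes described here were 32 markers of type 1 conventional dendritic cells (cDC1). They were listed as genes known to be enriched in cDC1, leaving out lectins, chemokine receptors, Toll-like receptors and integrins, and were found by Ensembl identifier in 6 libraries. All 32 were present among the 54532 gene identifiers counted, and all 32 passed the filter on low counts that left 12894 genes for testing. RNA was sequenced from cDC1 grown out of mouse bone marrow with FLT3L, the cytokine that drives dendritic cell development in culture, at 80 ng/mL for 8 days, from 3000000 cells per mL. The cells were sorted as CD24+ CD11c+ cells negative for B220, CD115 and CD172a. In 3 libraries the genotype was c-Jun/JunB fl/fl, with floxed alleles of both genes and no Cre. In the other 3 it was c-Jun/JunB Δ/Δ with Itgax-Cre. They are here named fl/fl 1 to 3 and Δ/Δ 1 to 3. In the Δ/Δ libraries the *Itgax* (CD11c) promoter drove Cre, so that deletion was directed to cells that express CD11c. The sample labels write this genotype as fl/fl Itgax-Cre. Mice in the study were of both sexes, aged 8 to 16 weeks, and mixed between 129 Sv and C57BL/6. The labels number the libraries of a genotype, and the study's supplement counts the points of these libraries as individual mice. The p-values measure the spread between these libraries. Library totals were 21693217 to 26788296 reads on genes, and 1 read stood for 0.0371 to 0.0466 CPM, counts per 1000000 reads on genes.

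Dendritic cells take up antigen and present it to T cells, and cDC1 are the subset best known for cross-presentation, the loading of antigen from other cells onto MHC class I for CD8 T cells. Their development depends on the transcription factors IRF8 and BATF3. BATF3 belongs to the AP-1 family, whose members dimerise with Jun proteins and bind DNA alone or together with IRF factors. The signature genes cover surface molecules, receptors and their signalling enzymes, vesicle traffic, lysosomal and lipid enzymes, and nuclear, cytoskeletal and secreted proteins.

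The RNA of the targeted genes was read first. *Jun* stood at 70.9, 52.4 and 63.1 CPM in fl/fl 1, 2 and 3 and at 48.1, 44.2 and 60.4 CPM in Δ/Δ 1, 2 and 3. The genotypes overlapped, since Δ/Δ 3 lay above fl/fl 2. *Junb* stood at 314.3, 273.7 and 412.6 CPM in fl/fl and at 110.3, 170.9 and 211.4 CPM in Δ/Δ libraries. All 3 Δ/Δ libraries lay below all 3 fl/fl libraries. The log2 fold change of Δ/Δ against fl/fl was -0.29 ± 0.149 (SE) for *Jun* and -1.02 ± 0.247 for *Junb*, with edgeR adjusted p = 0.345 and 0.0729. Without fl/fl 1 that of *Jun* was -0.18. Counts per gene do not show which part of a gene was floxed, so neither gene's RNA measures how complete the deletion was. For *Junb* the adjusted p was 0.000119 with DESeq2, 0.0161 without a filter and 0.0370 with a term for the replicate number, each of them a call. Without Δ/Δ 1 it was 0.0359 at a log2 fold change of -0.80. *Itgax*, whose promoter drove Cre, stood at 113.5, 127.6 and 152.9 CPM in fl/fl and at 44.7, 55.1 and 69.0 CPM in Δ/Δ libraries, again without overlap. Its log2 fold change was -1.22 ± 0.173 (adjusted p = 0.0147). The adjusted p rose to 0.0526, 0.0781 and 0.0505 without fl/fl 1, 2 and 3.

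Markers of cDC1 outside the 32 genes were read against the sample label. *Irf8* was at 2771, 2707 and 2650.0 CPM in fl/fl and at 2727, 2875 and 2774 CPM in Δ/Δ libraries, with overlap. Its log2 fold change was 0.04 with a 95% interval of -0.08 to 0.16, and it was 0.02 without Δ/Δ 2. *Clec9a*, the receptor for actin of dead cells, lay at 202.9 to 272.9 CPM in the 6 libraries, and *Batf3* at 45.2 to 66.1 CPM. Other cDC1 markers, described below, were lower in Δ/Δ libraries without overlap. These were *Xcr1*, *Tlr3* and *Ifi205*, at log2 fold changes of -1.42, -0.77 and -0.60 (edgeR adjusted p = 0.00812, 0.0226 and 0.0279). None of the 3 kept an adjusted p under 0.05 without fl/fl 1 or fl/fl 2. *Csf1r*, the gene of the CD115 excluded by the sort, had 3.58 to 6.80 CPM, and *Sirpa*, the gene of CD172a, 40.8 to 60.5 CPM. *Ptprc*, which encodes CD45 and its form B220, stood at 925.7, 1011 and 978.2 CPM in fl/fl and at 1104, 1095 and 1259 CPM in Δ/Δ libraries. It was higher in Δ/Δ libraries without overlap, at a log2 fold change of 0.25 ± 0.0724 and an adjusted p = 0.122, or 0.0342 with DESeq2.

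The Δ/Δ libraries stood further apart from each other than the fl/fl libraries did. A chi-square over genes, per degree of freedom, was 6.35 to 10.4 for pairs of fl/fl libraries and 27.9 to 38.5 for pairs of Δ/Δ libraries. Pairs between genotypes gave 28.1 to 57.8, so some Δ/Δ libraries were as far from each other as from fl/fl libraries. The median coefficient of variation (SD over mean) of the signature genes was 7.76% in fl/fl and 19.7% in Δ/Δ libraries, against 7.80% and 11.9% over all tested genes. Δ/Δ 2 stood apart for many of the signature genes. Genes of mature dendritic cells, 9 of 9 measured, summed to 1370.0, 998.3 and 1229 CPM in fl/fl and to 485.5, 2303 and 698 CPM in Δ/Δ libraries. Their sum was highest in Δ/Δ 2 and lowest in Δ/Δ 1. *Cd83*, with the highest mean CPM over the 6 libraries, was at 367.6 CPM in Δ/Δ 2 against 202.3 and 231.5 CPM in Δ/Δ 1 and 3. *Fscn1* was at 653.9 CPM in Δ/Δ 2 against 31.8 and 92.6 CPM. The part of these genes in the results was not tested.

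A gene was termed called if its edgeR adjusted p was below 0.05 and its absolute log2 fold change was 1 or more. The 32 genes were listed with earlier results of these data known, so counts and shares describe them and are no independent test. The paper had already reported *Plce1*, *Plpp1*, *Fzd1* and *Snx22* as reduced in these cells. Of the 32 signature genes, 4 were called lower in Δ/Δ libraries and 1 was called higher. Over all tested genes 1.86% were called, 0.869% lower and 0.993% higher. *Pianp*, *Fzd1*, *Plpp1* and *Plce1* were the called genes that were lower, and *Notch4* was the one that was higher. At the adjusted p alone, 8 genes were lower and 2 higher, where all tested genes gave 3.88%, with 1.85% lower and 2.03% higher. The additional genes were *Rasgrp3*, *Rab7b*, *Snx22* and *Ppt1*, which were lower, and *Fuca1*, which was higher. An unadjusted p under 0.05 was found for 15 of the 32 genes (46.9%), and for 2496 of all tested genes (19.4%). In 15 genes the genotypes did not overlap, 11 lower and 4 higher, and in the other 17 they did. Over all tested genes 26.0% did not overlap, 12.3% lower and 13.7% higher. The median log2 fold change of the 32 genes was -0.08, beside 0.0018 over all tested genes, and -0.30 without Δ/Δ 2. The called count was 3 when any one of fl/fl 1, fl/fl 2 and fl/fl 3 was left out, and 6 without Δ/Δ 2. The count at the adjusted p alone was 3 without any 1 of the fl/fl libraries and 14, 11 and 8 without Δ/Δ 1, 2 and 3. The called count over all tested genes, 240 with all libraries, was 74, 80 and 154 with fl/fl 1, 2 or 3 left out. Leaving out Δ/Δ 1, 2 or 3 made it 579, 370 and 192. At the adjusted p alone these 6 counts were 95, 95, 201, 1320.0, 719 and 352, against 500. These are bulk libraries, in which fewer cells that express a gene and less RNA per cell cannot be told apart.

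**Figure D1:**
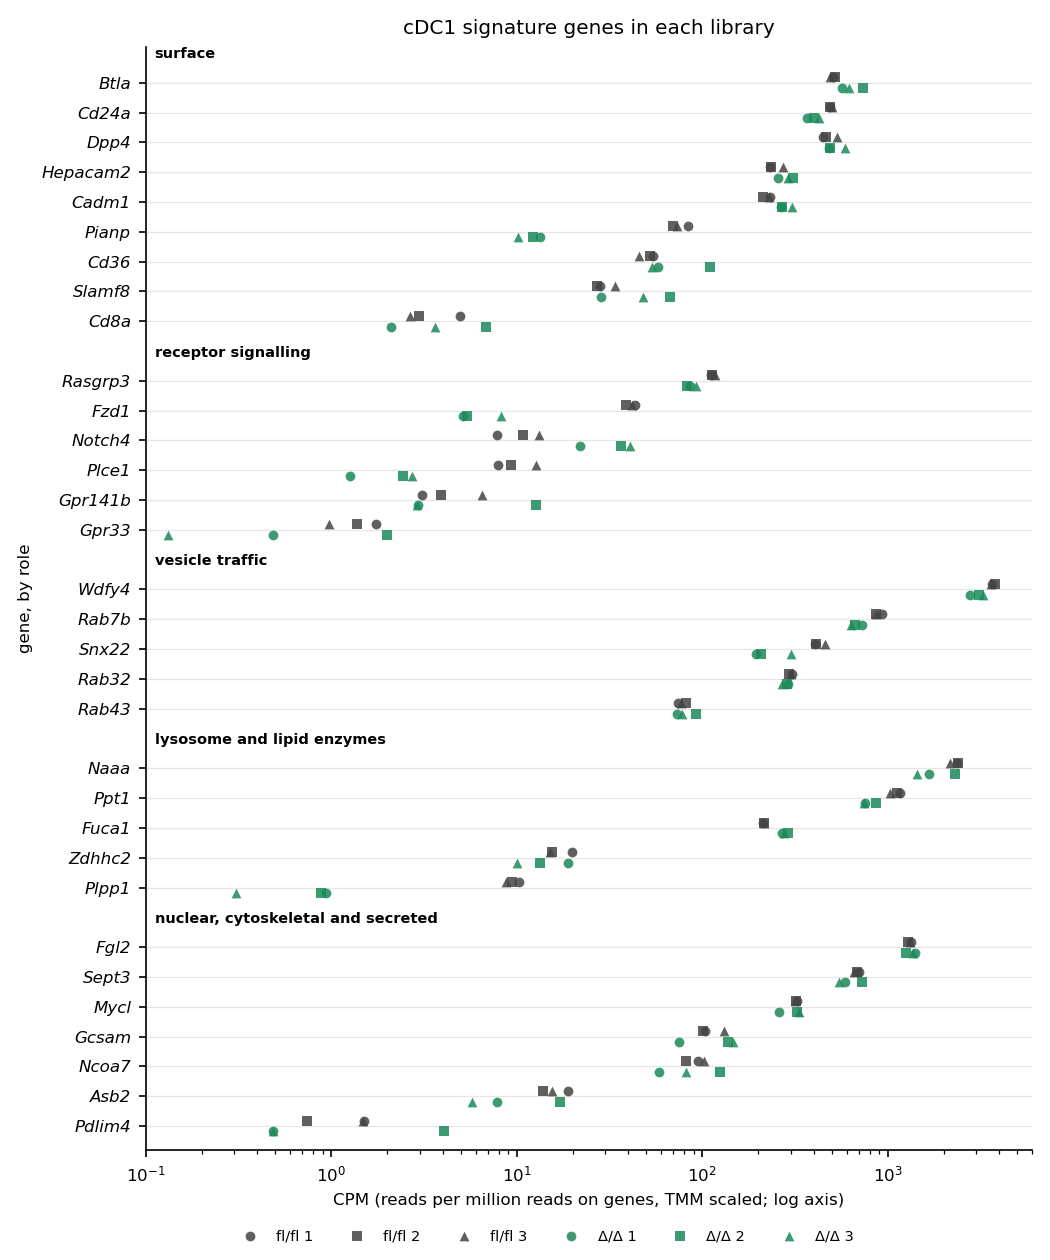
CPM of each signature gene (vertical axis, by role) in the 6 libraries on a log axis, with dark symbols for fl/fl and green symbols for Δ/Δ libraries and 1 symbol shape per replicate number. *Pianp*, *Fzd1*, *Plpp1* and *Plce1* have all 3 Δ/Δ libraries to the left of the fl/fl libraries and *Notch4* has them to the right.

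**Figure D2:**
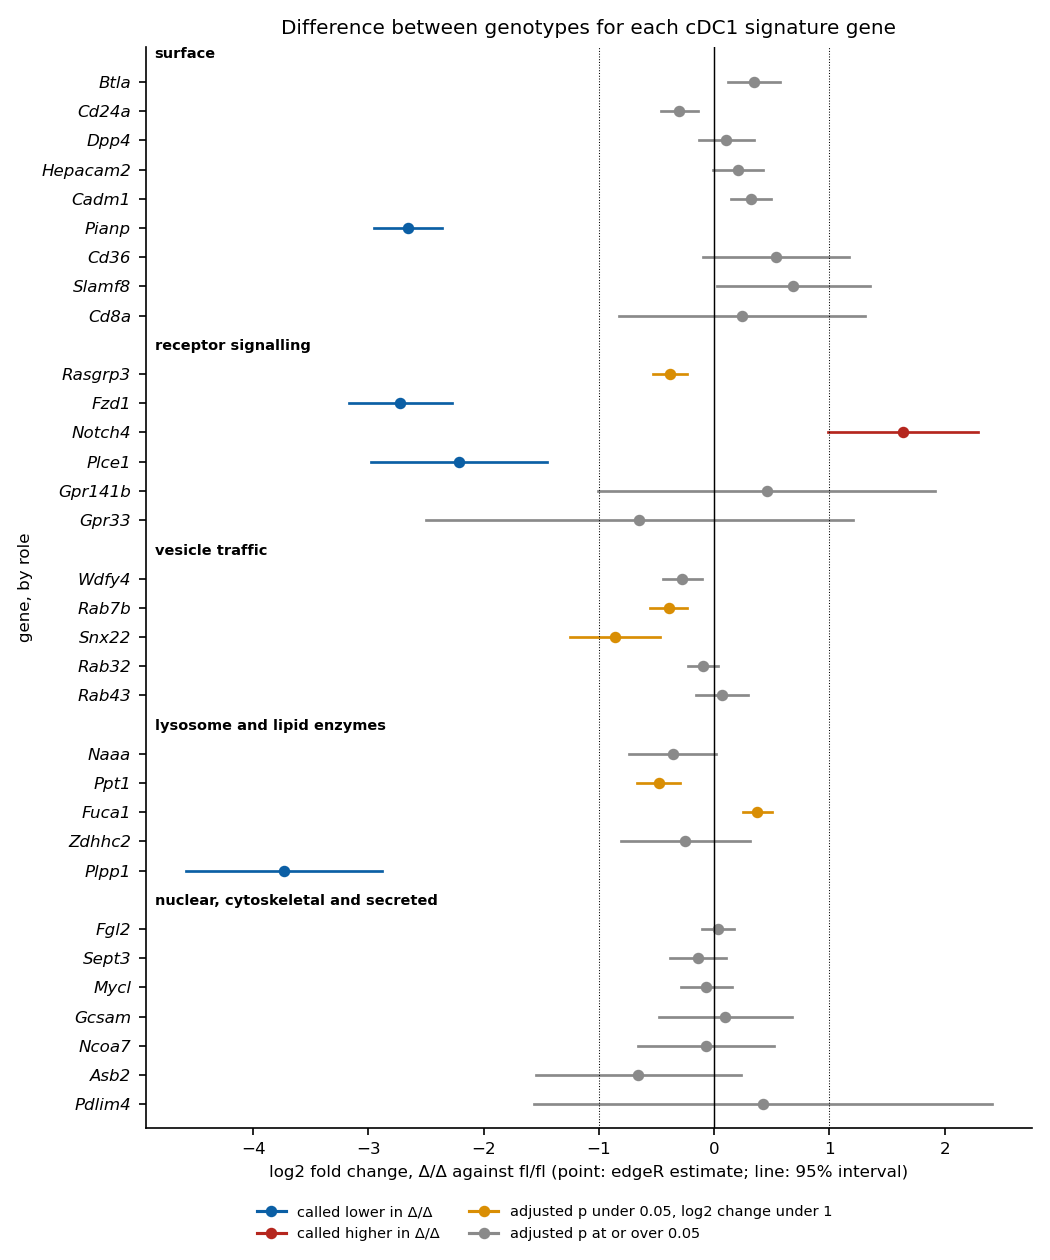
Log2 fold change of Δ/Δ against fl/fl for each signature gene, with points for the edgeR estimates and lines for their 95% intervals. The 5 called genes run from -3.73 for *Plpp1* to 1.64 for *Notch4*, and dotted lines mark a log2 fold change of 1 in either direction.

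Promoters are shown for the called genes with an entry and for those with a motif of AP-1, the family of the factors with floxed genes. The RefSeq table of promoters (GRCm38.p6, 250 bases before to 50 after each start) held 35 promoters for 26 of the 32 genes. *Cadm1*, *Cd24a*, *Plpp1*, *Rab7b*, *Sept3* and *Zdhhc2* had no entry. Both strands were searched for TGANTCA, the motif of AP-1 dimers, for TGACGTCA, that of CRE-binding factors, and for a pair of GAAA words 2 bases apart, a motif of IRF factors. TGANTCA was in 3 of the 35 promoters (8.57%), in 2565 of all 32851 promoters (7.81%) and in 4.92% of the promoters of tested genes. TGACGTCA was in none of the 35, in 1.79% of all and in 3.02% of those of tested genes. The pair of GAAA words was in 4 of the 35 (11.4%), those of *Dpp4*, *Slamf8*, *Ncoa7* and *Gpr141b*, in 3.44% of all and in 3.32% of those of tested genes. *Notch4*, *Fgl2* and *Slamf8* held the TGANTCA words, of which that of *Notch4* spanned -4 to 2, that of *Fgl2* -16 to -10 and that of *Slamf8* 9 to 15, counted from the start at 0. The *Slamf8* promoter also held the pair of GAAA words at -15 to -6, read on the opposite strand. Capitals mark these words, and none of the words searched was in the promoters of *Pianp*, *Fzd1* and *Plce1*. Of the 3 starts of *Pianp* the first is shown. The *Plce1* window lay inside the gene as annotated here (38481109 to 38785030), so the sequence at the first base of that gene was not searched. The *Fzd1* window (4758167 to 4758466) lay wholly before its gene on the minus strand (4753839 to 4758035), so that first base was not searched either. The *Ncoa7* window with the pair of GAAA words (30655818 to 30656117) lay inside its gene (30628999 to 30803326).

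Notch4 (chr17:34564045-34564344, plus strand): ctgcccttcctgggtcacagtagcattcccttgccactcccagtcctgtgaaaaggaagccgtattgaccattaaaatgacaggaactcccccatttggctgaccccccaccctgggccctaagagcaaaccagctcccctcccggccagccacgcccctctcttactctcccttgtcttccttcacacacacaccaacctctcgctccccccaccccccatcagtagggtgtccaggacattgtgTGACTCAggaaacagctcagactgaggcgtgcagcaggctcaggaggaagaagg

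Slamf8 (chr1:172590519-172590818, minus strand): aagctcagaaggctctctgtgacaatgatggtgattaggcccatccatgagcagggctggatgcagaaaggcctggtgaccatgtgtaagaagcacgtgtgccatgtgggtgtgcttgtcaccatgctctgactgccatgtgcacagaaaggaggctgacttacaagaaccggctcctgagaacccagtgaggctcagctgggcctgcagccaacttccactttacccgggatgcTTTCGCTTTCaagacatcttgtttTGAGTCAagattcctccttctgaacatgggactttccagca

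Fgl2 (chr5:21372423-21372722, plus strand): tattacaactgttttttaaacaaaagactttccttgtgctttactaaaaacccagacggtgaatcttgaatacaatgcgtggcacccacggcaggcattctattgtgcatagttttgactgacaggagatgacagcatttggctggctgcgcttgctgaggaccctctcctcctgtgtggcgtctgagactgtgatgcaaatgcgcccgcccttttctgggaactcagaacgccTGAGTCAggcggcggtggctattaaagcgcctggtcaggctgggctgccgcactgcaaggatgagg

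Pianp (chr6:124996470-124996769, plus strand): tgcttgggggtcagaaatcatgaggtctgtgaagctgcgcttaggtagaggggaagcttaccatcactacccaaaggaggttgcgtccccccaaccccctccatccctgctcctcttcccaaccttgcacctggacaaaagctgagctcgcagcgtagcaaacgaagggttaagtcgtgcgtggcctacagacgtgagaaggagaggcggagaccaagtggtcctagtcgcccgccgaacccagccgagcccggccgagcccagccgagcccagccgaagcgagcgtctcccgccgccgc

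Fzd1 (chr5:4758167-4758466, minus strand): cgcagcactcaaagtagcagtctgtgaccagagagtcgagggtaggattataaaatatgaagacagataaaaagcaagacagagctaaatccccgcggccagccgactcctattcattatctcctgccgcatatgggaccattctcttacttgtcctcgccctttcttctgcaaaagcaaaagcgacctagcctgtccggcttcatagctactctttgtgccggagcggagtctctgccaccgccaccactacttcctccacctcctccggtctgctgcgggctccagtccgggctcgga

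Plce1 (chr19:38523947-38524246, plus strand): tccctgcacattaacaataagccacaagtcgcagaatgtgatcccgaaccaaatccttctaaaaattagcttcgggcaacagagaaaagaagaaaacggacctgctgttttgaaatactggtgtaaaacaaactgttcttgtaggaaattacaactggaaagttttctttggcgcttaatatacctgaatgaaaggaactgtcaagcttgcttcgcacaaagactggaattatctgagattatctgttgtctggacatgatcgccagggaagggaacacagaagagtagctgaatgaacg

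A match in these windows is a description of the sequence alone. *Notch4* was called, while *Fgl2* and *Slamf8* were not.

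Of the 9 surface genes 1 was called, *Pianp*, which encodes a ligand of the inhibitory receptor PILRα (ENSMUSG00000030329.11, GRCm38 chromosome 6, 124996694 to 125003096). *Pianp* stood at 83.4, 69.5 and 73.1 CPM in fl/fl 1, 2 and 3 and at 13.3, 12.3 and 10.2 CPM in Δ/Δ 1, 2 and 3. Each Δ/Δ library was far below each fl/fl library, and the Δ/Δ libraries lay close together. RNA of *Pianp* was 6.31-fold lower, a log2 fold change of -2.66 ± 0.126 (adjusted p = 0.000214). The other 8 surface genes had an adjusted p at or over 0.05. Over all tested genes 1.86% were called. Of the 9 surface genes 5 had an unadjusted p under 0.05 (55.6%, against 19.4% of all tested genes). In 4 of the 9 the genotypes did not overlap, against 26.0% of all tested genes. *Cd24a*, a marker used for the sort and so bound to be present, was at 487, 488.2 and 501.7 CPM in fl/fl and at 366.1, 401.2 and 429 CPM in Δ/Δ libraries. It was lower in all Δ/Δ libraries, at a log2 fold change of -0.30 ± 0.0684 and an adjusted p = 0.0605. The adjusted p was 0.00531 with DESeq2, 0.0428 without a filter, 0.0492 without Δ/Δ 1 and 0.0426 without Δ/Δ 3. *Cadm1*, an adhesion molecule of the immunoglobulin family, stood at 230.9, 212.5 and 228.3 CPM in fl/fl and at 266, 267.9 and 304.7 CPM in Δ/Δ libraries. All Δ/Δ values were above all fl/fl values, at a log2 fold change of 0.32 ± 0.0728 and an adjusted p = 0.0615, or 0.0340 without Δ/Δ 1 and 0.00405 with DESeq2. *Btla*, an inhibitory receptor for HVEM, was also without overlap (log2 fold change 0.35 ± 0.0962, adjusted p = 0.102, or 0.0246 without Δ/Δ 1 and 0.0186 with DESeq2). *Dpp4*, a surface peptidase, and *Hepacam2*, of the immunoglobulin family, overlapped, with log2 fold changes of 0.11 and 0.21. *Dpp4* was at 0.01 without Δ/Δ 3 and at 0.18 without fl/fl 3.

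The value of *Cd36* depended on Δ/Δ 2, and that of *Slamf8* on Δ/Δ 1 and Δ/Δ 2. *Cd36*, a scavenger receptor for lipids and dying cells, was at 54.0, 52.5 and 45.7 CPM in fl/fl and at 57.5, 110.5 and 53.4 CPM in Δ/Δ libraries. *Slamf8*, of the SLAM receptor family, was at 28.1, 27.2 and 33.7 CPM in fl/fl and at 28.5, 66.9 and 48.1 CPM in Δ/Δ libraries. Both were highest in Δ/Δ 2, and for both the genotypes overlapped. The log2 fold change was 0.54 for *Cd36* and 0.69 for *Slamf8* (adjusted p = 0.327 and 0.244), and without Δ/Δ 2 it was 0.13 and 0.37. In Δ/Δ 3 *Slamf8* was also above all fl/fl libraries, while Δ/Δ 1 lay among them. Without Δ/Δ 1 its log2 fold change was 0.96 (adjusted p = 0.0137). *Cd8a*, the α chain of CD8 that marks the lymphoid-resident cDC1, had few reads, with 129, 80 and 63 in fl/fl and 52, 147 and 82 in Δ/Δ libraries. The genotypes overlapped, and the log2 fold change of 0.24 became -0.31 without Δ/Δ 2 and 0.57 without fl/fl 1. *Cd8b1*, which marks CD8 T cells, was at or under 0.233 CPM in all 6 libraries.

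Receptor signalling held 3 of the 5 called genes among its 6 members, where 1.86% of all tested genes were called. Its called count was 1 without any 1 of the fl/fl libraries and 2 without Δ/Δ 3. *Fzd1* encodes a Frizzled receptor for Wnt ligands (ENSMUSG00000044674.6, chromosome 5, 4753839 to 4758035). *Fzd1* stood at 43.6, 39.1 and 41.8 CPM in fl/fl and at 5.15, 5.41 and 8.27 CPM in Δ/Δ libraries. No Δ/Δ library came near the fl/fl libraries, and Δ/Δ 3 was the highest of its genotype. The gene was 6.61-fold lower, a log2 fold change of -2.72 ± 0.190 (adjusted p = 0.00142). *Plce1* encodes phospholipase C epsilon, an enzyme that cleaves phosphoinositides downstream of Ras proteins (ENSMUSG00000024998.17, chromosome 19, 38481109 to 38785030). *Plce1* stood at 7.90, 9.26 and 12.6 CPM in fl/fl and at 1.26, 2.42 and 2.73 CPM in Δ/Δ libraries, from 205, 250 and 298 against 31, 52 and 62 reads. The genotypes did not overlap. Its RNA was 4.65-fold lower (log2 fold change -2.22 ± 0.325, adjusted p = 0.0159), and the adjusted p was 0.0621, 0.0836 and 0.0581 without fl/fl 1, 2 and 3.

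*Notch4*, a Notch receptor, was the called gene that was higher (ENSMUSG00000015468.14, chromosome 17, 34564268 to 34588503). *Notch4* stood at 7.86, 10.9 and 13.3 CPM in fl/fl and at 21.9, 36.7 and 41.1 CPM in Δ/Δ libraries. Every Δ/Δ library exceeded every fl/fl library, with Δ/Δ 1 the lowest of its genotype. RNA of *Notch4* was 3.12-fold higher, a log2 fold change of 1.64 ± 0.277 (adjusted p = 0.0239). The call was lost without fl/fl 1, 2 or 3 and without Δ/Δ 3, where the adjusted p was 0.1204, 0.1302, 0.0577 and 0.0607. *Rasgrp3*, an exchange factor that activates Ras and Rap proteins, stood at 111.7, 113.2 and 117.7 CPM in fl/fl and at 86.2, 83.2 and 93.2 CPM in Δ/Δ libraries. All Δ/Δ libraries were lower by a small margin, with a log2 fold change of -0.38 ± 0.0629 (adjusted p = 0.0226). Without fl/fl 1, 2 and 3 the adjusted p was 0.1104, 0.111 and 0.0938. The members named for G protein-coupled receptors had few reads, and the annotation classed *Gpr141b* as a long noncoding RNA. *Gpr141b* had 80, 106 and 154 reads in fl/fl and 72, 274 and 66 in Δ/Δ libraries, and *Gpr33* had 45, 37 and 23 against 12, 43 and 3. Both overlapped. In CPM both were highest in Δ/Δ 2, and for *Gpr33* that was 2.00 CPM, before fl/fl 1 with 1.73 CPM. The log2 fold change was 0.46 for *Gpr141b* and -0.65 for *Gpr33*, and without Δ/Δ 2 it was -0.63 and -2.10 (adjusted p = 0.376 and 0.108). Over the alternatives *Gpr33* ran from -2.10 to -0.14 and *Gpr141b* from -0.63 to 0.82.

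Vesicle traffic had 5 members, of which none was called by edgeR and 2 were lower at the adjusted p alone. Over all tested genes 1.86% were called, and 1.85% were lower at the adjusted p alone. At an unadjusted p under 0.05 there were 3 (60.0%, against 19.4% of all tested genes), and none was called by DESeq2 or limma-voom. *Snx22*, a sorting nexin with a domain that binds phosphoinositides, stood at 406.7, 410.9 and 461.2 CPM in fl/fl and at 193.9, 207.3 and 303 CPM in Δ/Δ libraries. The genotypes did not overlap, and Δ/Δ 3 lay between the fl/fl libraries and the other Δ/Δ libraries. *Snx22* was 1.82-fold lower, a log2 fold change of -0.86 ± 0.166 (adjusted p = 0.0375). Without fl/fl 1, 2 and 3 the adjusted p was 0.147, 0.149 and 0.1297, and without Δ/Δ 2 it was 0.0602. Without Δ/Δ 3 the log2 fold change was -1.09 (adjusted p = 0.00349), which was a call. *Rab7b*, a small GTPase of endosomes and lysosomes, stood at 928.5, 863.5 and 867.7 CPM in fl/fl and at 725.4, 665.4 and 632 CPM in Δ/Δ libraries. All Δ/Δ libraries were lower. *Rab7b* had a log2 fold change of -0.39 ± 0.0679 (adjusted p = 0.0253), with an adjusted p of 0.137, 0.107 and 0.0906 without fl/fl 1, 2 and 3 and 0.0567 without Δ/Δ 3. *Wdfy4*, which cDC1 need for cross-presentation of antigen from cells, stood at 3657, 3785 and 3625 CPM in fl/fl and at 2765, 3122 and 3258 CPM in Δ/Δ libraries. It was lower in all 3 Δ/Δ libraries, but the log2 fold change of -0.28 ± 0.0716 had an adjusted p = 0.0876, or 0.0169 with DESeq2. The GTPase genes *Rab32* and *Rab43* had log2 fold changes of -0.10 and 0.07, without overlap for *Rab32* and with overlap for *Rab43*. *Rab43* was at -0.04 without Δ/Δ 2 and at 0.14 without Δ/Δ 1, and *Rab32* at -0.06 without Δ/Δ 3.

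Of the 5 lysosomal and lipid enzymes, 3 had an adjusted p under 0.05, against 3.88% of all tested genes. That count was 1 without any 1 of the fl/fl libraries, 4 without Δ/Δ 2 and 2 without Δ/Δ 3. At an unadjusted p under 0.05 there were 3 (60.0%, against 19.4% of all tested genes). *Plpp1* was the called gene of the 5, where 1.86% of all tested genes were called. It encodes a phosphatase that removes the phosphate from phosphatidate and lysophosphatidate (ENSMUSG00000021759.14, chromosome 13, 112800792 to 112867894). *Plpp1* stood at 10.3, 9.45 and 8.73 CPM in fl/fl and at 0.932, 0.886 and 0.308 CPM in Δ/Δ libraries, from 268, 255 and 206 against 23, 19 and 7 reads. Every Δ/Δ library was far below every fl/fl library. This was the largest difference among the 32 genes, 13.3-fold lower with a log2 fold change of -3.73 ± 0.361 (adjusted p = 0.00417). *Ppt1*, the lysosomal thioesterase that removes palmitate from proteins, stood at 1169, 1125 and 1026 CPM in fl/fl and at 758.8, 867.9 and 749.5 CPM in Δ/Δ libraries. All Δ/Δ libraries were lower. *Ppt1* had a log2 fold change of -0.48 ± 0.0803 (adjusted p = 0.0234), with an adjusted p of 0.137, 0.1302 and 0.0508 without fl/fl 1, 2 and 3 and 0.0607 without Δ/Δ 3. *Fuca1*, the lysosomal α-fucosidase, stood at 211.7, 216.6 and 214.5 CPM in fl/fl and at 268.1, 290.6 and 275 CPM in Δ/Δ libraries. It was higher in all 3 Δ/Δ libraries, with little spread in either genotype. The log2 fold change was 0.38 ± 0.0543 (adjusted p = 0.0154), and the adjusted p was 0.114, 0.103 and 0.0745 without fl/fl 1, 2 and 3.

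*Naaa*, the lysosomal amidase of N-acylethanolamines, stood at 2372, 2392 and 2179 CPM in fl/fl and at 1671, 2296 and 1443 CPM in Δ/Δ libraries. Δ/Δ 1 and 3 lay below all fl/fl libraries, and Δ/Δ 2 lay among them. The log2 fold change was -0.36 ± 0.1596 (adjusted p = 0.275), and it was -0.57 without Δ/Δ 2 (adjusted p = 0.0163) and -0.22 without Δ/Δ 3 (adjusted p = 0.503). *Zdhhc2*, a palmitoyltransferase, overlapped at 15.1 to 19.8 CPM in fl/fl and 10.03 to 18.9 CPM in Δ/Δ libraries. Its log2 fold change was -0.25 ± 0.238 (adjusted p = 0.605), and it was -0.52 without Δ/Δ 1, -0.06 without Δ/Δ 3 and -0.12 without fl/fl 1.

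None of the 7 nuclear, cytoskeletal and secreted members was called or had an edgeR adjusted p under 0.05, none had an unadjusted p under 0.05 (19.4% of all tested genes did), and all 7 overlapped between genotypes. Without Δ/Δ 2, 4 of the 7 had an unadjusted p under 0.05 and 1 was called. With all libraries DESeq2 and limma-voom also called none. *Fgl2*, a secreted protein related to fibrinogen, was at 1283 to 1338 CPM in fl/fl and 1261 to 1400.0 CPM in Δ/Δ libraries. Its log2 fold change was 0.03 with a 95% interval of -0.10 to 0.17, and it was 0.01 without Δ/Δ 1 and 0.08 without Δ/Δ 2. *Mycl*, a MYC family transcription factor, had a log2 fold change of -0.07, *Sept3*, a septin of the cytoskeleton, -0.14, and *Gcsam*, an adaptor protein first known from germinal centre B cells, 0.10. *Sept3* was at -0.27 without Δ/Δ 2 (adjusted p = 0.0571) and at -0.06 without Δ/Δ 3. *Mycl* became 0.04 without Δ/Δ 1 and -0.13 without Δ/Δ 3. *Gcsam* became -0.02 without Δ/Δ 2, -0.08 without Δ/Δ 3 and 0.35 without Δ/Δ 1. *Asb2* and *Pdlim4* turned on Δ/Δ 2. *Asb2*, a subunit of ubiquitin ligases, stood at 19.0, 13.8 and 15.5 CPM in fl/fl and at 7.82, 17.1 and 5.77 CPM in Δ/Δ libraries. Δ/Δ 1 and 3 lay below all fl/fl libraries and Δ/Δ 2 did not. Its log2 fold change was -0.66 ± 0.3795 (adjusted p = 0.393), and without Δ/Δ 2 it was -1.24 (adjusted p = 0.0255), which was a call, and -0.37 without Δ/Δ 3. *Ncoa7*, a coactivator of nuclear receptors, had a log2 fold change of -0.07, which was 0.15 without Δ/Δ 1 and -0.41 without Δ/Δ 2. *Pdlim4*, which binds the actin cytoskeleton, had few reads, 39, 20 and 35 in fl/fl and 12, 87 and 11 in Δ/Δ libraries. Its log2 fold change of 0.42 became -1.34 without Δ/Δ 2, 0.87 without Δ/Δ 1, -0.28 with limma-voom and -0.24 with a term for the replicate number.

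Δ/Δ 2 was the highest of the 6 libraries for 12 of the 32 genes (37.5%), compared with 18.6% of all tested genes. Its value was at least 1.5 times the mean of Δ/Δ 1 and 3 for 8 genes (25.0%), compared with 1094 tested genes (8.48%). *Pdlim4* had the largest ratio at 8.36, before *Gpr33* at 6.48 and *Gpr141b* at 4.39. The others were *Asb2* at 2.51, *Cd8a* at 2.40, *Cd36* at 1.99, *Ncoa7* at 1.78 and *Slamf8* at 1.75. None of the 5 called genes was among them, and for these the ratio was 0.806 to 1.43. The lowest library was Δ/Δ 3 for 12 genes (37.5%) and Δ/Δ 1 for 10 (31.2%), compared with 22.2% and 17.1% of all tested genes. The median log2 ratio of the 32 genes to the fl/fl mean was -0.41 in Δ/Δ 1, 0.05 in Δ/Δ 2 and -0.19 in Δ/Δ 3.

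**Figure D3:**
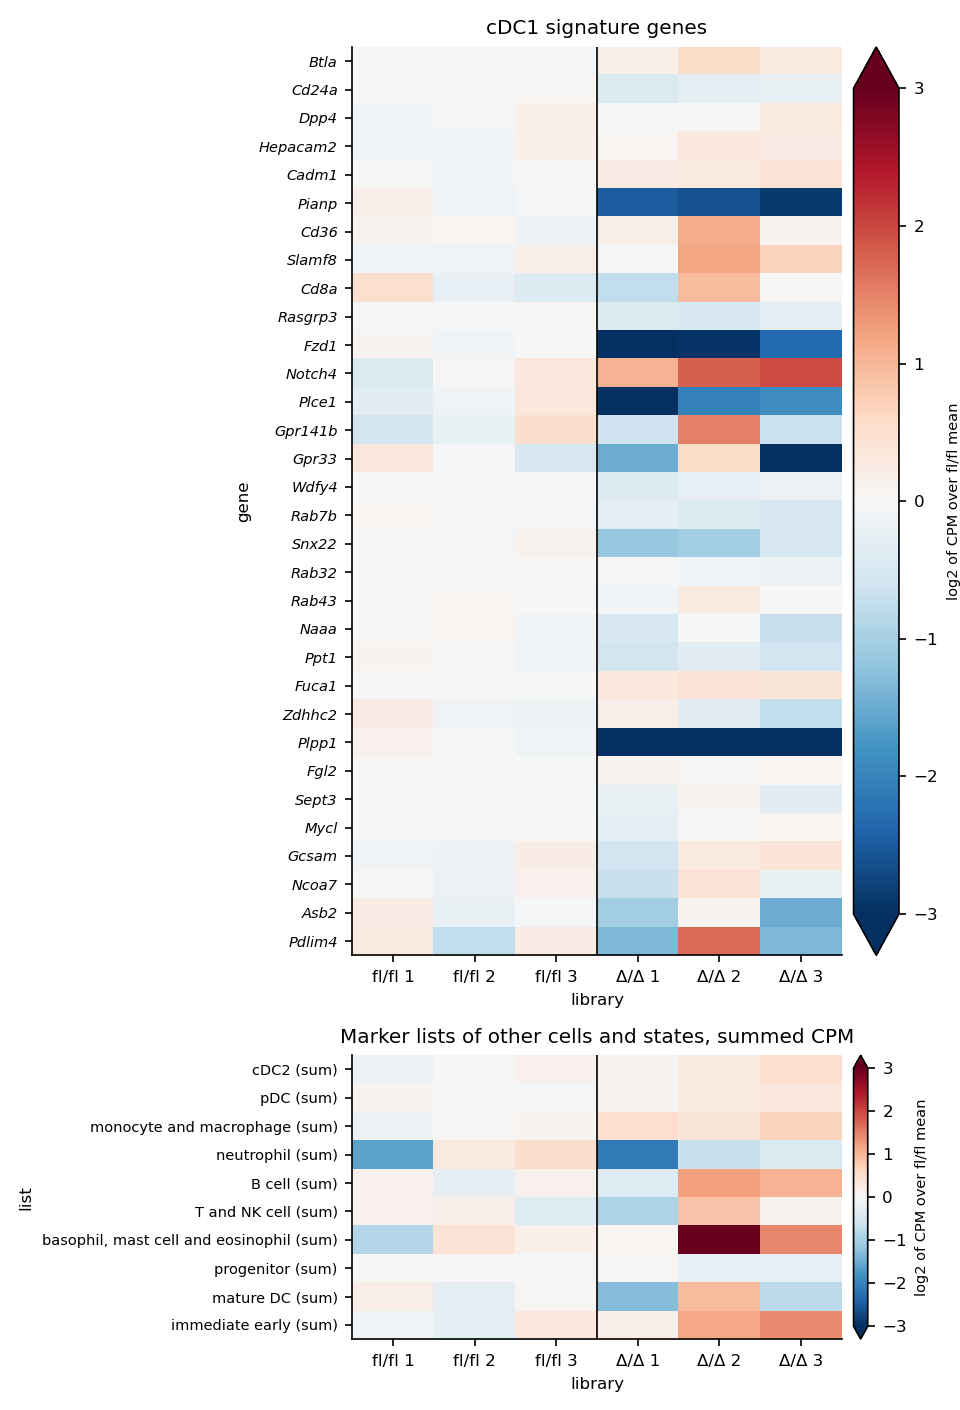
Log2 of the CPM in each library over the fl/fl mean, for the signature genes (upper panel) and for summed marker lists of other cells and states (lower panel), with red above and blue below that mean and colours ending at 3 in either direction. *Pianp*, *Fzd1*, *Plpp1* and *Plce1* are blue in all 3 Δ/Δ libraries, while *Cd36*, *Slamf8*, *Cd8a*, *Gpr141b* and *Pdlim4* are reddest in Δ/Δ 2, as is the sum of mature dendritic cell genes.

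Levels were compared between genes per length, as reads per kilobase of merged exons, scaled to a total of 1000000 in each library (TPM). The median of the 32 genes in fl/fl libraries was 80.5 TPM, compared with 19.7 TPM over all tested genes. *Naaa* was the most abundant at 2094 TPM, before *Wdfy4* at 1177, *Fgl2* at 1165 and *Ppt1* at 1014 TPM. At the other end were *Cd8a* at 3.27, *Plce1* at 2.09 and *Pdlim4* at 1.63 TPM. *Pianp* was the most abundant of the called genes at 88.9 TPM in fl/fl libraries, before *Fzd1* at 33.3, *Plpp1* at 18.3, *Notch4* at 4.45 and *Plce1* at 2.09 TPM. 

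**Figure D4:**
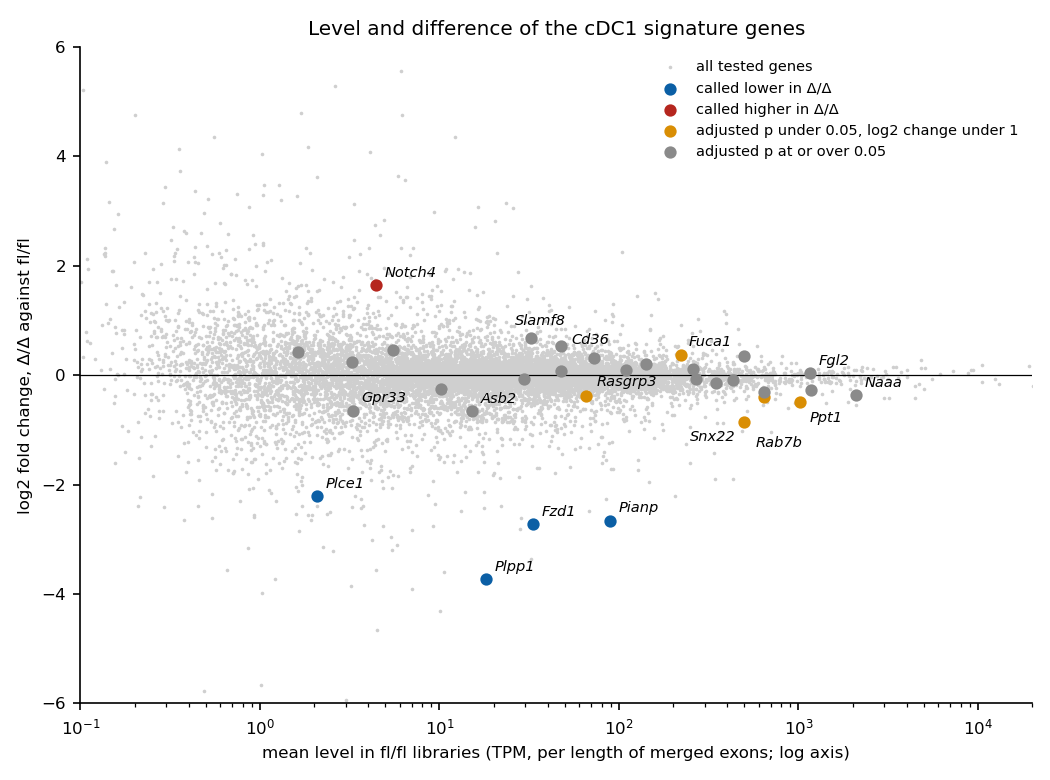
Log2 fold change of Δ/Δ against fl/fl (vertical axis) over the mean TPM in fl/fl libraries (log axis), with small grey points for tested genes and large points for the 32 signature genes. The called genes lie at 2.09 to 88.9 TPM, and 37 tested genes lie outside the axes.

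Of 18 other cDC1 genes, 17 were tested, and 1 was called lower, where 0.869% of all tested genes were called lower. An adjusted p under 0.05 was found for 3, all lower, against 3.88% of all tested genes. An unadjusted p under 0.05 was also found for 3 (17.65%), against 19.4% of all tested genes. The genotypes did not overlap in 3 of the 17, against 26.0% of all tested genes. *Xcr1*, the chemokine receptor by which cDC1 are recognised, stood at 474.6, 420.7 and 442.4 CPM in fl/fl and at 177.5, 201.1 and 121.9 CPM in Δ/Δ libraries. The genotypes did not overlap (log2 fold change -1.42 ± 0.172, adjusted p = 0.00812). Leaving out fl/fl 1 or fl/fl 2 gave an adjusted p of 0.0570 and 0.0501. With Δ/Δ 2 left out the count of called genes was 3, with *Il12b* and *Ly75* added. *Tlr3*, a sensor of double-stranded RNA, and *Ifi205*, of a family of interferon-induced genes, were lower at the adjusted p alone, with log2 fold changes of -0.77 ± 0.125 and -0.60 ± 0.107 (adjusted p = 0.0226 and 0.0279). Without fl/fl 1, 2 and 3 the adjusted p was 0.108, 0.107 and 0.0885 for *Tlr3* and 0.149, 0.148 and 0.0563 for *Ifi205*, and for *Ifi205* 0.0580 without Δ/Δ 3. *Itgae*, the gene of CD103, stood at 151.4, 206 and 258.3 CPM in fl/fl and at 200.6, 891 and 228.4 CPM in Δ/Δ libraries. It was high in Δ/Δ 2 alone, and its log2 fold change of 1.10 (adjusted p = 0.343) was 0.06 without that library. The median log2 fold change of the 17 genes was 0.04. Of 15 genes of the cross-presentation machinery, edgeR, DESeq2 and limma-voom called 0, and 3 (20.0%) had an unadjusted p under 0.05 in edgeR, beside 19.4% of all tested genes. Without Δ/Δ 3 edgeR called 1, *Rac2*. Their median log2 fold change was -0.01.

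Marker lists of other cells were read beside the signature genes, and their part in the results was not tested. The gene that leads a list is the one with the highest mean CPM over the 6 libraries. Of 13 cDC2 genes, *Cd4* and *Cd209a* were called higher and *Clec12a* lower, and *Klf4* was higher at the adjusted p alone, genes named after their values were seen. Without fl/fl 1, 2 and 3 the called count was 1, 1 and 2, and without Δ/Δ 3 it was 2. It was 4 with DESeq2, without a filter, with a term for the replicate number, without Δ/Δ 1 and without Δ/Δ 2. The list summed to 1106, 1229 and 1353 CPM in fl/fl and to 1304, 1477 and 1730.0 CPM in Δ/Δ libraries, led by *Notch2*. Of the 13 genes, 9 were fitted above 0, 6 were higher and 1 lower without overlap, and the median log2 fold change was 0.71. An unadjusted p under 0.05 was found for 8 (61.5%, against 19.4% of all tested genes). Over all tested genes 1.86% were called, and 13.7% were higher and 12.3% lower without overlap. Of 10 plasmacytoid genes, 8 were tested and *Ccr9* was called higher. At an unadjusted p under 0.05 there were 3 (37.5%, against 19.4% of all tested genes). The called count was 2 with DESeq2, without a filter, without Δ/Δ 1 and without Δ/Δ 2. The sum was 266.2, 246.6 and 247.5 CPM in fl/fl and 266.1, 307.6 and 318.1 CPM in Δ/Δ libraries, led by *Bst2*, and the median log2 fold change was 0.11. Of 10 monocyte and macrophage genes, 7 were tested and *Ccr2* and *Adgre1* were higher at the adjusted p alone, where all tested genes gave 3.88%. At an unadjusted p under 0.05 there were 3 (42.9%, against 19.4% of all tested genes). The count at an adjusted p under 0.05 was 1, 0 and 1 without fl/fl 1, 2 and 3 and 1 without Δ/Δ 3, and it was 3 without Δ/Δ 2. *Ccr2* was called without fl/fl 3, and both genes without Δ/Δ 1. The sum was 2448, 2784 and 2869 CPM in fl/fl and 3815, 3462 and 4308 CPM in Δ/Δ libraries, led by *Lyz2*, and *C5ar1* and *Mertk* were under 1 CPM in all 6 libraries. The median log2 fold change was 0.32. The sums of the cDC2 and plasmacytoid lists overlapped between genotypes and those of the monocyte and macrophage list did not. After seeing the data each list was also summed without its leading gene. The Δ/Δ libraries were then above the fl/fl libraries for all 3 lists. Without *Notch2* the cDC2 sums were 306.8, 335.7 and 464.7 CPM in fl/fl and 558.4, 662.2 and 812.9 CPM in Δ/Δ libraries. Without *Bst2* the plasmacytoid sums were 157.1, 144.3 and 158.5 CPM against 187.2, 237.1 and 240.6 CPM. *Bst2* itself went the other way, at 109.1, 102.3 and 89.05 CPM in fl/fl and 78.9, 70.5 and 77.5 CPM in Δ/Δ libraries. It was lower without overlap (log2 fold change -0.41, edgeR adjusted p = 0.0572), so the sum without it left out an opposing gene. Without *Lyz2* the monocyte and macrophage sums were 689.3, 847.2 and 949.6 CPM against 1439, 1569 and 1791 CPM. With *Ccr2* left out in place of *Lyz2* the latter overlapped, at 1790.0, 1972 and 1960.0 CPM in fl/fl and 2424, 1961 and 2585 CPM in Δ/Δ libraries.

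No gene of the lists of neutrophil, B cell, T and NK cell, basophil, mast cell and eosinophil, progenitor, mature dendritic cell, immediate early and AP-1 genes was called by edgeR. At an unadjusted p under 0.05 there were 2, 1, 0, 0, 4, 1, 8 and 3 genes in that order, out of 5, 6, 2, 1, 8, 9, 12 and 9 tested, where all tested genes gave 19.4%. The median log2 fold changes were -1.10, 0.35, 0.12, 0.89, -0.36, -0.20, 1.08 and 0.23. DESeq2 called 2, 1, 0, 0, 2, 0, 3 and 2, and limma-voom called 1, which was *Sox4* of the progenitor list. EdgeR called 2, 1, 0, 1, 1, 0, 3 and 2 without a filter and 2, 1, 0, 0, 0, 0, 0 and 1 with a term for the replicate number. Without Δ/Δ 1 edgeR called 1 B cell gene, 2 of the basophil, mast cell and eosinophil list, 3 progenitor, 8 immediate early and 2 AP-1 genes. With Δ/Δ 2 left out it called 1 neutrophil, 2 progenitor and 4 mature dendritic cell genes. Neutrophil genes, 5 of 10 tested, summed to 5.01, 19.0 and 22.1 CPM in fl/fl and 3.53, 9.65 and 11.4 CPM in Δ/Δ libraries, led by *S100a9* and with *Ly6g* and *Elane* at 0. B cell genes, 6 of 8 tested, summed to 36.0, 26.8 and 36.3 CPM and 25.4, 78.0 and 68.4 CPM, led by *Cd22*. T and NK cell genes, 2 of 11 tested, summed to 2.62, 2.67 and 1.86 CPM and 1.26, 4.29 and 2.55 CPM, led by *Lck*. These sums were small and overlapped between genotypes. Genes of basophils, mast cells and eosinophils, 1 of 9 tested, summed to 0.617, 1.52 and 1.27 CPM in fl/fl and 1.18, 17.1 and 3.08 CPM in Δ/Δ libraries, highest in Δ/Δ 2, led by *Prss34* and with *Il4* and *Epx* at 0. In fl/fl libraries *Gata2* was above *Prss34*. Progenitor genes, 8 of 8 tested, summed to 1890.0, 1856 and 1752 CPM and 1874, 1553 and 1548 CPM, led by *Flt3*. Immediate early genes, 12 of 12 tested, summed to 863.9, 788.2 and 1181 CPM and 1077, 2116 and 2530.0 CPM, led by *Btg2*, though *Zfp36* was above it in Δ/Δ 2 and 3. AP-1 genes, 9 of 10 tested, summed to 775.9, 692.9 and 950.1 CPM and 568.2, 956.9 and 1044 CPM, led by *Jund*, though *Junb* was above it in all 3 fl/fl libraries and *Fos* in Δ/Δ 3. All these sums overlapped between genotypes, and so did those without the leading gene, for all 8 lists from neutrophil to AP-1 genes. *Fos*, *Fosb*, *Flt3*, *Batf3*, *Csf1r* and *Sirpa* each stood in more than 1 list.

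By position, the 32 genes lay on 16 chromosomes. Chromosome 5 held *Cd36*, *Fzd1*, *Naaa* and *Fgl2*, and chromosome 6 held *Cd8a*, *Hepacam2*, *Pianp* and *Rab43*. The pairs within 1000 kb were *Ppt1* and *Mycl*, 136 kb apart on chromosome 4 with 1 protein-coding gene between them, and *Btla* and *Gcsam*, 353 kb apart on chromosome 16 with 4 between them. *Ppt1* was lower at the adjusted p alone, and the other genes of these pairs had an adjusted p at or over 0.05.

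Some signature genes shared exon bases with another gene. *Rab43* shared 75.4% with *Gm45140* on the same strand, so its count rested on the other 24.6%. *Snx22* shared 28.5% with *Ppib* on the opposite strand. *Ppib* stood at 310.0, 263.3 and 281.4 CPM in fl/fl and at 275.5, 285.8 and 268.1 CPM in Δ/Δ libraries, with overlap (log2 fold change -0.04, adjusted p = 0.787). *Plpp1* shared 25.8% with *Mtrex* on the opposite strand. *Mtrex* stood at 89.3, 89.9 and 87.2 CPM in fl/fl and at 79.0, 72.2 and 66.9 CPM in Δ/Δ libraries, lower without overlap (log2 fold change -0.29, adjusted p = 0.0798). Reads on bases shared with the opposite strand are counted or not according to the strand column of the counts. The paper names a directional library kit, but the column was not given in the sources used here. *Pianp*, *Fzd1*, *Plce1* and *Notch4* shared no exon base with another gene.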

How the data were processed

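RNA of sorted cDC1 was measured in 6 libraries. The authors aligned reads to GRCm38 with STAR 2.6.1a after bcl2fastq 2.19.1.403 and deposited raw counts of uniquely mapped reads per gene, not normalized and not pooled. The strand column of these counts was not given in the sources used here. Of all reads, 20.3 to 20.9% were unmapped, mapped to several places, lay on no gene or were ambiguous, and stayed out of library totals. Those on no gene were 8.57 to 10.3%. Names, positions and exon lengths came from GENCODE release M21, which held 54495 of the 54532 identifiers.

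Genes were filtered with filterByExpr (count at least 10, total at least 15), which kept 12894, and scaled by TMM factors. The quasi-likelihood F test of edgeR 4.0.16 (R 4.3.3) compared genotypes with no other term, and p-values were adjusted by Benjamini-Hochberg over all genes kept. Calls required an adjusted p below 0.05 and an absolute log2 fold change of 1 or more. CPM used TMM-scaled totals. The standard error (SE) of a log2 fold change is the absolute estimate divided by the square root of the quasi-likelihood F. A count of 0 in all libraries of a genotype allows up to 3 pooled reads, which is 0.0392 CPM for fl/fl and 0.0436 CPM for Δ/Δ, and covers counting error only.

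Alternatives were DESeq2 size factors, the Wald test of DESeq2 1.42.0, limma-voom (limma 3.58.1), no filter, a stricter filter (mean of at least 1 CPM), a term for the replicate number, each library left out, and the adjusted p alone. Single genes outside the 32 were put through the same alternatives after the data had been seen. The steps were tested on simulated counts.

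The 32 members and the marker lists were chosen with earlier results of these data known. Genes named were the 32 members, called genes and fixed markers of the other cDC1 and cross-presentation lists, *Jun*, *Junb*, *Itgax*, genes of the sort markers, and the gene with the highest mean CPM and genes at 0 of each other list. Further genes were named after their values were seen.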

Additional observations from a re-analysis of the deposited data

How the results depend on the processing

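Of 384 values of the 32 genes under 12 alternatives, 336 kept their direction and their side of the threshold. With 1 library left out 25 lost an adjusted p under 0.05, and over all alternatives 13 gained one. Direction turned for *Pdlim4* with limma-voom (-0.28) and with a term for the replicate number (-0.24). The further turns came with 1 library left out, where the log2 fold change ran from -1.34 to 0.87 for *Pdlim4*, -0.31 to 0.57 for *Cd8a*, -0.63 to 0.82 for *Gpr141b*, -0.038 to 0.14 for *Rab43*, -0.13 to 0.037 for *Mycl*, -0.41 to 0.15 for *Ncoa7*, and -0.077 to 0.35 for *Gcsam*. *Batf3*, outside the 32 genes, ran from -0.021 to 0.24. Genes called, 240 with all libraries, were 385 with DESeq2, 356 without a filter, 500 at the adjusted p alone and 74 to 579 with 1 library left out. The count of called signature genes was 5 under every alternative that kept all libraries and the limit on the fold change, and these were the same 5 genes. It was 10 at the adjusted p alone and 3 to 6 with 1 library left out. For the other cDC1 genes it was 1, or 3 at the adjusted p alone and 0 to 3 with 1 library left out. The median of the 32 genes ran from -0.30 to -0.05 with 1 library left out and from -0.15 to -0.08 otherwise. The cause of these changes was not tested. *Gpr33*, *Pdlim4*, *Gpr141b* and *Cd8a* had few reads, which limits the precision of their values.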
